A study of Homo sapiens with 2 samples.

Results

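The TRAIL and FAS death receptor pathway was followed here through 10 genes, TNFSF10, TNFRSF10A, TNFRSF10B, TNFRSF10C, TNFRSF10D, FAS, FADD, CASP8, CASP10 and CFLAR. They were chosen by name, and every probe set whose only annotated gene symbol was one of these names was kept. This gave 43 probe sets of 41091 with a single gene symbol, for 10 genes of 19775. The cells were hTERT-RPE1, an immortalised human cell line from retinal pigment epithelium that carries telomerase, grown in medium with 10% serum and hygromycin B. One culture had received a miR-129-3p oligo and the other a control oligo, both by the same lipid reagent, and RNA was taken at 72 h. The sequence of the control oligo and the chemistry of both oligos are not given in the sources used here. Each group held 1 Affymetrix array, so no difference below has a replicate error or a test, and every difference compares 2 arrays. Each array reads RNA from a whole culture, so fewer cells expressing a gene and less of its RNA per cell cannot be told apart.

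TRAIL, the product of TNFSF10, and FAS ligand are proteins of the TNF family that can kill a cell by clustering a receptor on its surface. The clustered receptor binds the adaptor FADD through death domains, and FADD in turn gathers caspase-8 and caspase-10, which activate each other and then cut the executioner caspases. The product of CFLAR, called c-FLIP, resembles caspase-8 in its long form but lacks proteolytic activity, and it controls how much caspase is activated at the receptor. TRAIL is also known as an interferon-induced gene.

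The oligo corresponds to the 3p arm of miR-129, of which the human genome encodes 2 mature forms. Both are shown because they define the treatment, with the seed, bases 2 to 8, in capitals. The labels do not say which of the forms was used, and both carry the same seed. The sequences are from RefSeq on GRCh38.p14, plus strand, at chr7:128207920-128207941 and chr11:43581450-43581471.
hsa-miR-129-1-3p: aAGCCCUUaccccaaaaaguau
hsa-miR-129-2-3p: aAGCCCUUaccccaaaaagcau

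The array values were linear signals, 1 for each probe set and array, with a median of 98.0 on the miR-129-3p array and 96.5 on the control array over 54613 probe sets. Differences are given as log2(miR-129-3p signal + 16) minus log2(control signal + 16), which understates differences of dim probe sets. A probe set was counted when it reached a signal of 100 on the brighter array, and 2-fold, a difference of 1 or more on this scale, was the limit for calling it higher or lower. Over all genes with several such probe sets, the differences of 1 gene's probe sets had a pooled SD of 0.37, a spread within arrays that leaves out the spread between cultures. Of the retinal pigment epithelium markers, KRT8, KRT18, MITF, PMEL and TTR reached 100 on the brighter array, while RPE65, BEST1, RLBP1, TYR and TYRP1 did not. MITF, a transcription factor of pigment cells, read 1020 with miR-129-3p and 2470 in control (-1.26), and KRT18, an epithelial keratin, read 2972 with miR-129-3p and 5787 in control (-0.96). PMEL, a melanosome protein, read 229 with miR-129-3p and 114 in control (0.92), while KRT8 differed by -0.32 and TTR by 0.23. The summed signal of all 10 markers, those under 100 included, was 9485 with miR-129-3p and 14840 in control. Most of it came from KRT18 and from KRT8, which read 4918 with miR-129-3p and 6138 in control. The part of the markers in the results below was not tested.

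Of the 43 probe sets, 32 reached 100 on the brighter array, and on 14 of these the miR-129-3p signal was higher by 2-fold or more. One was lower by that much, and 17 lay between the limits. Over all 23707 probe sets with 1 gene symbol and such a signal, 7.55% passed the limit upward and 4.80% downward. The higher share of the pathway was 43.8%, and its median difference was 0.75, against 0.03 over all of them. Of the 14 higher probe sets, 5 passed the filter only through the miR-129-3p array and so had to be higher there. Among the 27 that reached 100 on both arrays, 9 were at least 2-fold higher and 1 lower, beside 5.70% and 4.43% of all 20809 such probe sets. Probe sets of 1 gene read the same transcripts and are not independent, and CFLAR alone has 14 of the 43. By gene, the median over the passing probe sets was 5.33 for TNFSF10, 1.89 for TNFRSF10A, 1.47 for CASP8, 1.09 for FAS, 0.99 for TNFRSF10B and 0.57 for CFLAR. It was -0.06 for both FADD and CASP10 and -1.99 for TNFRSF10D, and TNFRSF10C had no passing probe set. The medians of TNFSF10, TNFRSF10A and CASP8 include the probe sets that passed only through the miR-129-3p array. Each of these 3 genes had 1 probe set at 100 or more on both arrays, with differences of 0.37, 2.42 and 1.73.

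**Figure D1:**
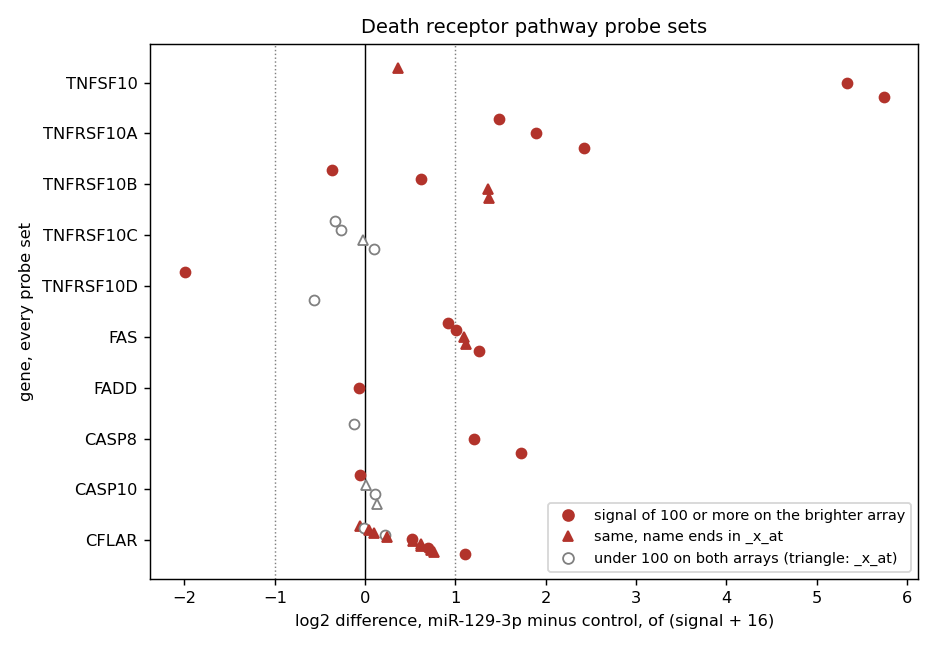
Log2 difference (miR-129-3p minus control, of signal + 16) on the horizontal axis for each of the 43 probe sets, grouped by gene; filled symbols reached a signal of 100 on the brighter array, open ones did not, triangles have names ending in _x_at, and dotted lines mark 2-fold. TNFSF10 has probe sets at 5.74, 5.33 and 0.37, TNFRSF10D lies at -1.99, and all 5 FAS probe sets lie between 0.92 and 1.26.

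**Figure D2:**
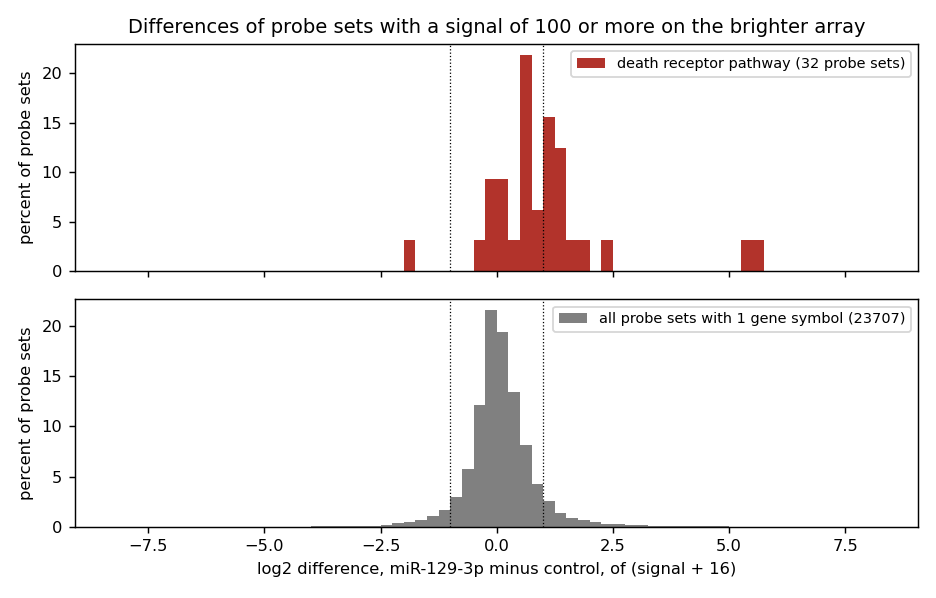
Percent of probe sets (vertical axes) in bins of the log2 difference (horizontal axis) for the 32 pathway probe sets that reached 100 on the brighter array, above, and for all 23707 such probe sets with 1 gene symbol, below; dotted lines mark 2-fold. The median is 0.75 in the upper panel and 0.03 in the lower.

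The ligand had the largest differences of the pathway. TNFSF10 probe set 202687_s_at had a signal of 1237 on the miR-129-3p array, against 7.47 on the control array, a log2 difference of 5.74. Probe set 202688_at read 903 on the miR-129-3p array, against 6.78 on the control array, a difference of 5.33. Both control signals were far below 100, so the size of the ratio is not fixed by these arrays. With the control set to 100, the 2 probe sets were at least 12.4-fold and at least 9.03-fold higher. The third probe set, 214329_x_at, did not follow them: it read 1334 on the miR-129-3p array and 1032 on the control array, a difference of 0.37. Its name ending marks probes that can match other transcripts too, and which of the 3 reads TRAIL mRNA best was not tested. Because 214329_x_at has the highest mean level of the 3, a rule that keeps the brightest probe set of a gene gives TNFSF10 a difference of 0.37 in place of the values above 5.

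Promoter sequence was examined for the members present in the RefSeq table of windows from 250 bases before to 50 bases after each start on GRCh38.p14, which gave 12 windows for TNFSF10, FAS, FADD, CASP8 and CFLAR. The interferon-stimulated response element was searched as 2 copies of TTTC with any 2 bases between them, and the gamma-activated element GAS as TTC and GAA with any 3 bases between them, each on both strands. The first was found in 1 window of TNFSF10 and in 1 of the 3 windows of CASP8, and in 3.57% of all 35116 windows. The second was found only in that CASP8 window, at bases -200 to -192, without overlap with the first, and in 7.66% of all windows. No match in FAS, FADD or CFLAR says only that these letters were not in these windows. The TNFSF10 and CASP8 stretches are shown, the ligand and the initiator caspase with higher signals, with the match to the first motif in capitals. The match lies at bases -187 to -178 from the TNFSF10 start and at -3 to 7 around the CASP8 start, and is a match of letters only. TNFSF10 is at chr3:172523431-172523680 on the minus strand and CASP8 at chr2:201233213-201233474 on the plus strand.
TNFSF10: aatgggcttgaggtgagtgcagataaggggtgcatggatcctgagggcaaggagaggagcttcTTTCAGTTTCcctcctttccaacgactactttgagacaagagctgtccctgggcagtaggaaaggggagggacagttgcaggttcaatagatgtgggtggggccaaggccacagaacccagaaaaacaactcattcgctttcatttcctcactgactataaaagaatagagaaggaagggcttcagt
CASP8: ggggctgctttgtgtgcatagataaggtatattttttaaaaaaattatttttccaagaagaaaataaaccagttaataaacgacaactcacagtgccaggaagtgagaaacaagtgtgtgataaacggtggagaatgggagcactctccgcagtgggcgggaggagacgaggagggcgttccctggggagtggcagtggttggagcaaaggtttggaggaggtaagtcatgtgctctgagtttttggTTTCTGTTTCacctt

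TNFRSF10A, which encodes the death-domain receptor TRAIL-R1 (DR4), had higher signals with miR-129-3p on all of its probe sets. Probe set 231775_at read 671 on the miR-129-3p array, against 113 on the control array, a log2 difference of 2.42. Probe set 1552648_a_at read 334 with miR-129-3p and 78.2 in control, and 241371_at read 220 with miR-129-3p and 68.5 in control. These differences were 1.89 and 1.48, and with control signals set to 100 they came to at least 3.34-fold and at least 2.20-fold higher. No probe set of the gene went the other way, but all 3 control signals were near or under 100.

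TNFRSF10B encodes TRAIL-R2 (DR5), the second receptor with a working death domain, and its 4 probe sets did not give 1 answer. Probe set 209294_x_at read 584 on the miR-129-3p array and 216 on the control array, a difference of 1.37. Probe set 210405_x_at read 540 with miR-129-3p and 201 in control, a difference of 1.36. The brightest, 209295_at, read 4400 on the miR-129-3p array and 2854 on the control array, a difference of 0.62, which is more than 1.5-fold but less than 2-fold. The dimmest, 1556645_s_at, had the opposite sign, at 106 with miR-129-3p and 141 in control, a difference of -0.36. The signal of TNFRSF10B was thus higher on 3 of 4 probe sets, with differences of 0.62 to 1.37 on these 3.

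Of the membrane receptors that bind TRAIL without a working death domain, known as decoys, TNFRSF10D was lower on its 1 passing probe set, and TNFRSF10C was under 100 throughout. TNFRSF10D, which encodes TRAIL-R4 with a truncated death domain, read 391 on the miR-129-3p array, against 1604 on the control array, on probe set 227345_at. The log2 difference was -1.99, and the probe set ranked 205 of 23707 from the bottom. It was the only one of the 32 passing probe sets of the pathway at least 2-fold lower. Its other probe set, 210654_at, was under 100 on both arrays, at 42.9 with miR-129-3p and 71.0 in control, so the lower signal rests on a single probe set. TNFRSF10C, which encodes the lipid-anchored decoy TRAIL-R3, stayed under 100 on all 4 probe sets, with signals of 58.8 to 68.4 on the miR-129-3p array and of 58.5 to 80.9 on the control array. Its differences ran from -0.33 to 0.10, and at this signal no difference could be read. The signalling receptor TNFRSF10A and the decoy TNFRSF10D, which are next to each other in the genome, therefore differed in opposite directions on these arrays.

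**Figure D3:**
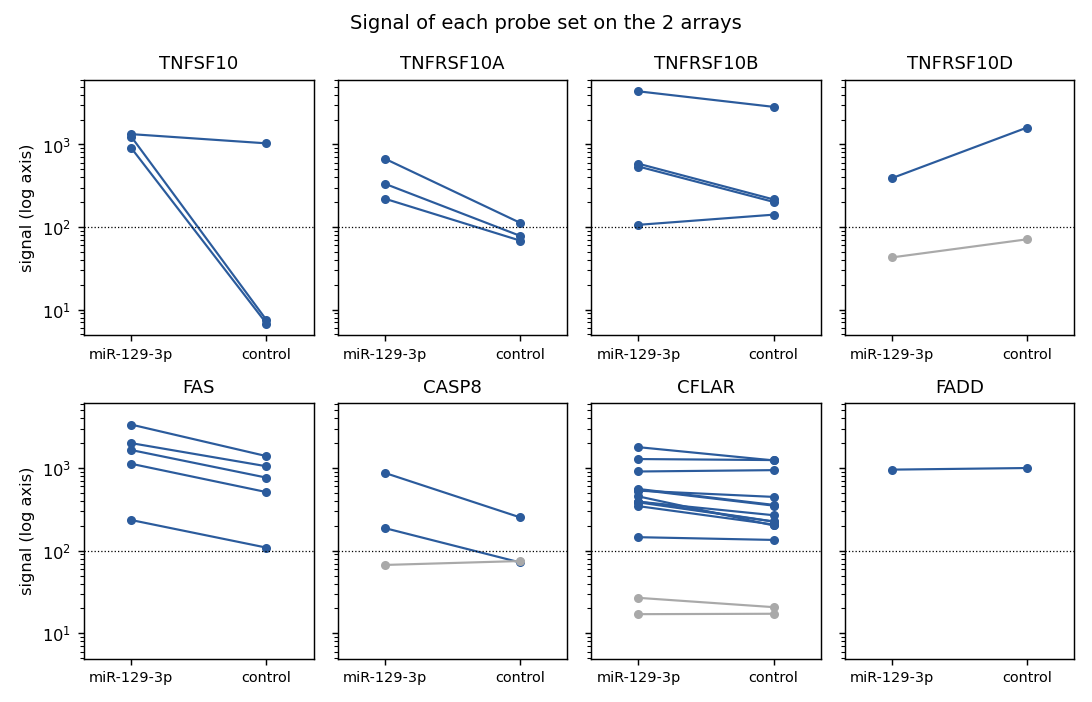
Signal on a log axis for each probe set of 8 genes on the miR-129-3p array (left point) and the control array (right point), joined by a line; blue lines reached 100, the dotted line, on the brighter array, and grey lines did not. In control the TNFSF10 lines end at 7.47, 6.78 and 1032, and TNFRSF10D probe set 227345_at is lower with miR-129-3p (391, against 1604 in control).

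FAS, the receptor for FAS ligand, had higher signals with miR-129-3p by a similar amount on all of its probe sets. Probe set 204780_s_at read 3368 on the miR-129-3p array, against 1399 on the control array, a difference of 1.26. Probe set 204781_s_at read 2009 with miR-129-3p and 1054 in control, a difference of 0.92, just inside the 2-fold limit. The remaining probe sets, 216252_x_at, 215719_x_at and 233820_at, had differences of 1.11, 1.09 and 1.01, the last just outside it. All 5 probe sets reached 100 on both arrays and spread over only 0.92 to 1.26, although their signals on the miR-129-3p array ran from 235 to 3368. FASLG, the gene of FAS ligand, read 107 with miR-129-3p and 114 in control on its brighter probe set, a difference of -0.08.

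The adaptor FADD, which joins both kinds of receptor to the caspases, differed little. Its single probe set, 202535_at, read 960 on the miR-129-3p array and 1004 on the control array, a difference of -0.06.

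Of the initiator caspases, CASP8 was higher with miR-129-3p on 2 of 3 probe sets, and CASP10 differed by -0.06 on its 1 passing probe set. CASP8 probe set 213373_s_at read 875 on the miR-129-3p array, against 254 on the control array, a difference of 1.73. Probe set 207686_s_at read 188 with miR-129-3p and 72.1 in control, a difference of 1.21, or at least 1.88-fold with the control set to 100. The third CASP8 probe set, 1553306_at, was under 100 on both arrays, at 67.2 with miR-129-3p and 75.0 in control, and differed by -0.13. Only 213373_s_at reached 100 on both arrays, since 207686_s_at passed through the miR-129-3p array alone. Of the 3 CASP8 promoter windows, 1 holds the letters searched as interferon-stimulated response element, as does the TNFSF10 window. Whether these letters act on either gene was not tested. CASP10, the closest relative of caspase-8, reached 100 on 1 of 4 probe sets, 210955_at, with 108 on the miR-129-3p array and 113 on the control array. Its other probe sets had signals of 29.9 to 52.4 with miR-129-3p and 25.9 to 47.2 in control. At such signals a difference in CASP10 may not be detectable.

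CFLAR had 14 probe sets, of which 12 reached 100 on both arrays, and 11 of these 12 were above 0. Their differences ran from -0.05 to 1.11 with a median of 0.57. Only 1, 235427_at, was at least 2-fold higher, with 455 on the miR-129-3p array and 202 on the control array. A further 5 were at least 1.5-fold higher, among them 211862_x_at, which read 394 with miR-129-3p and 226 in control (0.76). So 6 of the 12 passed that limit upward and 0 downward, beside 16.7% and 11.1% of all probe sets. The 12 read 1 gene and are not independent, so 6 of 12 is not like a share over many genes. Other bright probe sets showed no such difference: 209939_x_at read 1289 with miR-129-3p and 1253 in control (0.04), and 210563_x_at read 911 with miR-129-3p and 946 in control (-0.05). CFLAR is known to give long and short splice forms, but which form each probe set reads was not tested. Of its 14 probe sets, 9 have names ending in _x_at.

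The TRAIL receptor genes form one gene cluster and CFLAR, CASP10 and CASP8 another, by the RefSeq gene order of GRCh38.p14. The protein-coding genes around both were read too, each by its brightest passing probe set. The 4 TRAIL receptor genes follow each other on chromosome 8 in the order TNFRSF10B, TNFRSF10C, TNFRSF10D and TNFRSF10A. Of the 3 protein-coding genes on either side, RHOBTB2 differed by 0.34, CHMP7 by 0.32, R3HCC1 by 0.03 and LOXL2 by 0.14. PEBP4 was under 100 on both arrays. EGR3, an immediate early transcription factor, read 45.2 with miR-129-3p and 269 in control, a difference of -2.22. CFLAR, CASP10 and CASP8 follow each other on chromosome 2. Their neighbours ORC2, HYCC2, NDUFB3, TRAK2 and STRADB had differences of -0.62 to 0.67, and FLACC1 was under 100 on both arrays. Of the 10 measured neighbours of both clusters, 1, EGR3, was past 2-fold, beside 7.85% upward and 4.59% downward among 12770 genes. EGR3 passed the filter only through the control array and so had to be lower with miR-129-3p.

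**Figure D4:**
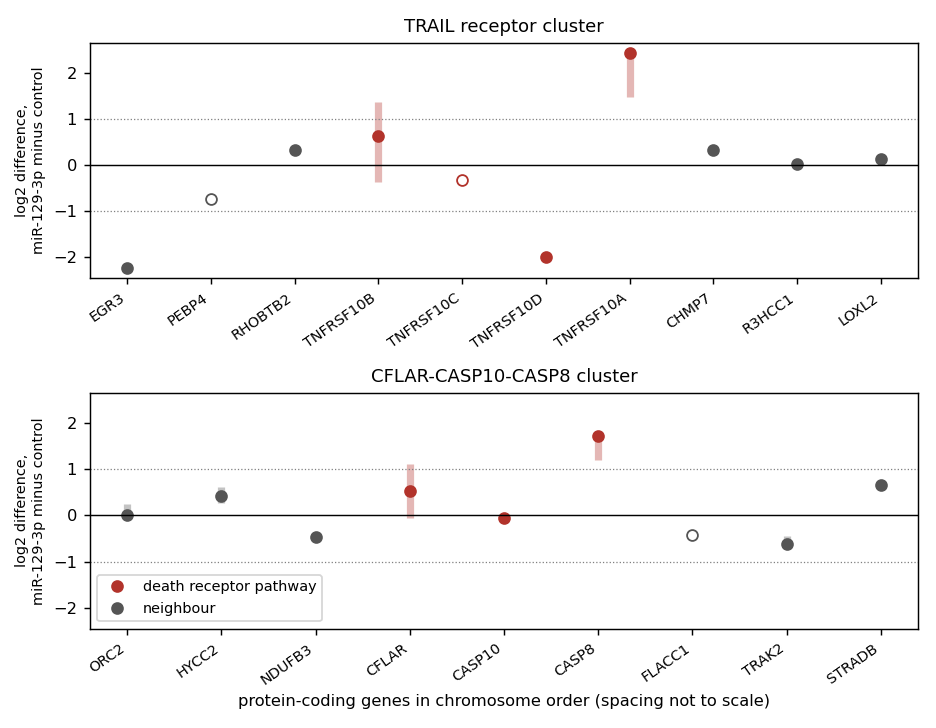
Log2 difference (miR-129-3p minus control, vertical axis) of the brightest passing probe set of each protein-coding gene, in chromosome order, for the TRAIL receptor cluster and the CFLAR-CASP10-CASP8 cluster; red points are pathway genes, grey points neighbours, open points are under a signal of 100 on both arrays, and pale bars span the passing probe sets of a gene. TNFRSF10A at 2.42 lies next to TNFRSF10D at -1.99, and CASP8 at 1.73 next to CASP10 at -0.06.

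The rest of the pathway was read from 5 lists with 63 genes, of which 54 were analysed and 48 passed the same signal filter. Of these 48, 12 passed the 2-fold limit upward and 2 downward, beside 7.85% upward and 4.59% downward among 12770 genes, each by its brightest passing probe set. The lists were chosen with earlier results of these data known.

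Among other ligands and receptors of the TNF family, 4 of 7 measured genes were at least 2-fold higher and 0 lower, with a median of 1.25, against 0.03 over all genes. TNFRSF1B and TNFRSF21 passed the filter only through the miR-129-3p array and so had to be higher there, and of the 4 genes at 100 or more on both arrays, 2 were at least 2-fold higher. TNFRSF1B, the second TNF receptor, which has no death domain, read 2255 with miR-129-3p and 29.6 in control, at least 22.5-fold higher with the control set to 100. TNFRSF21, the death-domain receptor DR6, read 557 with miR-129-3p and 39.4 in control, at least 5.57-fold higher on the same basis. TNFRSF1A, the first TNF receptor, which carries a death domain, read 2580 with miR-129-3p and 1077 in control (1.25). TNFRSF11B encodes osteoprotegerin, a soluble protein that can bind TRAIL, and read 692 with miR-129-3p and 214 in control (1.62). TNF itself read 78.8 with miR-129-3p and 100.5 in control.

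Of the adaptors and regulators of the receptor complex, 1 of 15 measured genes was at least 2-fold higher and 1 lower, with a median of 0.25. TNFAIP3, which encodes the ubiquitin-editing enzyme A20, read 2026 with miR-129-3p and 716 in control (1.48). PEA15, a death effector domain protein that can bind FADD and caspase-8, read 1795 with miR-129-3p and 4613 in control (-1.35), and its other probe set differed by -1.87. RNF31 and RBCK1, subunits of the linear ubiquitin ligase, differed by 0.86 and 0.78, while SHARPIN, also a subunit, differed by -0.24. Of the 2 probe sets of RNF31, 1 passed the filter, and the mean difference over both was 0.31.

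Executioner caspases and genes of the mitochondrial branch differed little. Of 12 measured genes, 0 were at least 2-fold higher and 1 was lower, with a median of -0.03. The lower gene was DFFA, the inhibitor of the caspase-activated DNase, at 441 with miR-129-3p and 1033 in control (-1.20), while its 3 probe sets ran from -1.20 to -0.36. PARP1, a caspase substrate in DNA repair, differed by -0.55, CASP6, an executioner caspase, by -0.51, and BAX, which permeabilises mitochondria, by 0.48.

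In the list of necroptosis genes and inflammatory caspases, 3 of 5 measured genes were at least 2-fold higher and 0 lower, with a median of 2.09. MLKL, which breaches the plasma membrane in necroptosis, read 2490 with miR-129-3p and 242 in control (3.28). CASP1, the caspase of inflammasomes, read 4357 with miR-129-3p and 524.5 in control (3.02), and its 5 probe sets lay between 3.02 and 3.49. CASP4, an inflammatory caspase that senses bacterial lipopolysaccharide, read 1962 with miR-129-3p and 450.2 in control (2.09). GSDMD, the pore-forming gasdermin these caspases cut, differed by 0.58. RIPK3, the kinase upstream of MLKL, stayed under 100, at 65.8 with miR-129-3p and 74.3 in control.

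Of factors known to act on transcription of the members, 4 of 9 measured genes were at least 2-fold higher and 0 lower, with a median of 0.50. IRF7 read 3634 with miR-129-3p and 201 in control (4.07), IRF9 3956 with miR-129-3p and 1038 in control (1.91), and IRF1 2248 with miR-129-3p and 688 in control (1.69). These are interferon regulatory factors. DDIT3, the stress factor CHOP, known to act on TNFRSF10B, read 1083 with miR-129-3p and 429 in control (1.30). The part of these factors in the differences of the members was not tested.

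**Figure D5:**
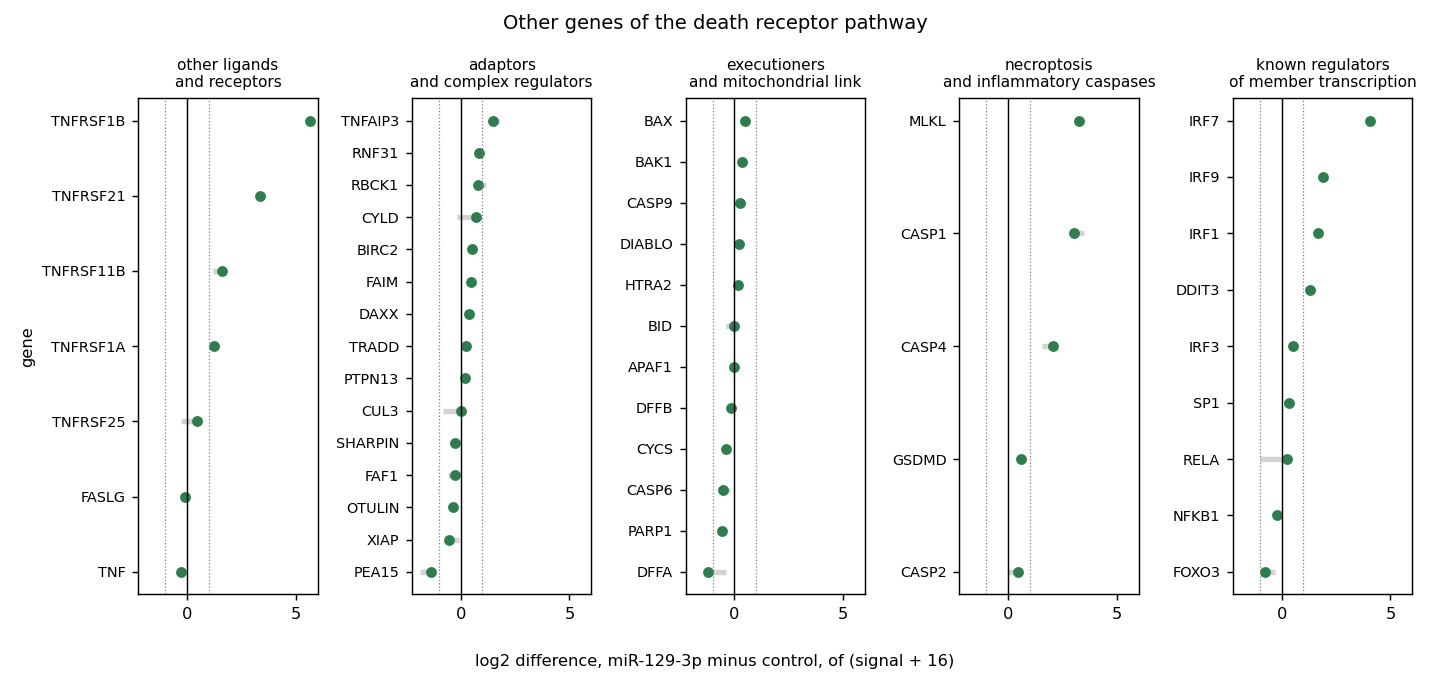
Log2 difference (miR-129-3p minus control, of signal + 16, horizontal axes) of each measured gene of the 5 lists, by its brightest passing probe set (point), with the span of its passing probe sets (pale bar); dotted lines mark 2-fold. Points past the upper limit number 4, 1, 0, 3 and 4 from left to right, and those past the lower limit 0, 1, 1, 0 and 0.

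Markers of T cells and natural killer cells, which use FAS ligand and TRAIL, were read as well. Of 9 such markers, 2 reached 100 on either array, GZMB at 133 with miR-129-3p and 133 in control and PRF1 at 91.7 with miR-129-3p and 102 in control. The summed signal of the 9 was 560 with miR-129-3p and 609 in control, and 0 of them were past 2-fold. The 3 monocyte markers analysed were under 100 on both arrays and summed to 102 with miR-129-3p and 95.8 in control.

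With 2 arrays, likeness to another gene means only closeness of a single difference. By its brightest probe set, 214329_x_at, TNFSF10 was closest to DYRK1B, SOAT1 and OCIAD1, and 701 genes lay within 0.05 of it. The mean of its probe sets without the _x_at ending was 5.54. By this value it was closest to IFIT1 (5.55), SECTM1 (5.56) and TNFRSF1B (5.64), and 2 genes lay within 0.05 of it. In control, SECTM1 and TNFRSF1B were under 100, as were these TNFSF10 probe sets, so the size of their differences is not fixed by these arrays.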

How the data were processed

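The series has 2 arrays, 1 for each group, assigned by the genotype field of the labels. The deposited table holds 1 linear intensity per probe set and array; MAS5 and RMA appear in the submitters' processing notes, and neither the role of each nor the scaling between arrays is given in the sources used here. Gene names came from the annotation of the array platform, which gives a single symbol for 41091 probe sets, more than one for 1801 and no entry for 11721. Differences were taken on log2(signal + 16), and no p-values are given. Depth does not apply to arrays, and their number limits the precision. The rule for named genes takes all 10 members with every probe set and up to 4 genes with the largest absolute difference per list. It also takes 3 neighbours on each side of the clusters and the 3 genes closest to each TNFSF10 value used for likeness. FASLG, TNF, RIPK3 and SHARPIN are named beside these. Members, lists and rules were chosen with earlier results of these data known, and the promoter motifs after the values were seen. Alternatives were other constants, scalings, filters, a signal floor, probe set classes and fold limits. Calculations were tested on simulated data and were run in Python 3.11.15 with pandas 2.3.3 and numpy 2.4.6, the loess fit with statsmodels 0.14.6.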

Additional observations from a re-analysis of the deposited data

How the results depend on the processing

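The count of 14 higher member probe sets was 11 to 14 under the other constants, scalings and filters and the signal floor, out of 26 to 43. Over all probe sets, 4.69% to 8.28% were higher under these settings. Without TNFSF10, an alternative chosen after seeing the data, the count was 12 of 29. It was 6 of 11 without probe sets ending in _x_at or _s_at, beside 8.11% of all probe sets in that setting. These 6 include TNFSF10 202688_at and TNFRSF10A 1552648_a_at and 241371_at. Each of these passed the filter only through the miR-129-3p array and so had to be higher there. At 1.5-fold it was 21 of 32, beside 16.7% of all probe sets, and at 3-fold 5 of 32, beside 3.26%. The 5 at 3-fold include TNFSF10 202687_s_at and 202688_at and TNFRSF10A 1552648_a_at, which also passed the filter only through the miR-129-3p array. The member median was 0.53 to 1.01 over the alternatives other than the fold limits, for which it was not computed. The count of lower member probe sets was 1 under each constant, scaling, filter, signal floor and fold limit tried, beside 1.76% to 11.1% of all probe sets. Of 48 other pathway genes, 2 were lower as reported, 1 of 29 without those endings, 1 with the mean of a gene's probe sets, 3 at 1.5-fold and 0 at 3-fold. The count of 12 higher was 9 of 29 without those endings, 15 of 48 at 1.5-fold and 9 of 48 at 3-fold. It stayed at 12 in the other settings. The share over all genes was not computed for these alternatives, so these counts have no share to be set beside. Of 258 member differences recomputed under the other constants, the scalings and the signal floor, 247 moved by less than the pooled SD of 0.37, 11 moved by more and 0 changed sign among called ones. No paired analysis was possible because each group holds 1 array. Signals under 100 limit TNFRSF10C, CASP10, TNFRSF10D 210654_at, CASP8 1553306_at and CFLAR 217654_at and 214618_at. They also limit the control side of TNFSF10 202687_s_at and 202688_at, of TNFRSF10A 1552648_a_at and 241371_at and of CASP8 207686_s_at.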

Other observations

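The 2 probe sets annotated to both TNFRSF10C and LOC254896 were outside the rule for the pathway. Probe set 210483_at read 213.5 with miR-129-3p and 221 in control, and 210484_s_at read 128 with miR-129-3p and 121 in control, differences of -0.05 and 0.08.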
